A study of Mus musculus with 3 samples.

Results

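The telomere-proximal 3 Mb of the 19 mouse autosomes were described in 2 DamID profiles of mouse embryonic fibroblasts. The members were all fragments of chromosomes 1 to 19 whose end lay less than 3000000 bp before the end of the last fragment of the chromosome, a choice that used position alone. They numbered 141988 of the 6415372 fragments of each profile, and the comparison was the other 5830902 autosomal fragments. DamID marks DNA near a protein by fusing it to the bacterial methylase Dam, which methylates adenine in GATC. Fragments between methylated GATC sites are then amplified and sequenced. The cells were wild-type C57BL/6 fibroblasts. They carried a retroviral construct of Dam-Lamin A, of Dam-Lap2b, or of Dam only, with 1 sample in each of the 3 groups. All groups therefore shared the strain, the genotype, the retroviral transduction and the Dam enzyme itself, and no separate file of the Dam-only sample was analysed here. With 1 sample per group, differences were without a check by replicates and without a p-value. The SDs below describe the spread over bins or over chromosomes within these libraries.

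Lamin A forms filaments that line the nucleus from inside, and Lap2b sits in the inner nuclear membrane and binds lamins. Lamina-associated domains (LADs) are long, mostly gene-poor and late-replicating stretches that touch the lamina. Mouse autosomes are acrocentric, so the low coordinates begin next to the centromere and the high coordinates end at the distal telomere. The telomere is a repeat array bound by the shelterin proteins, and the sequence inward of it can be rich or poor in genes depending on the chromosome.

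Values are log2 ratios of fusion to reference, averaged over the fragments of 10 kb bins with at least 5 fragments. A value above 0 stands for more methylation by the fusion than in the reference, on the scale of the deposited values. By the form read from these values, fragments with equal reads in both, or with none, lie just above 0. They lie at 0.0846 in the Lamin A profile and at 0.0222 in the Lap2b profile. Such a value in at least 1 profile was held by 10.3% of end fragments and 12.3% of the rest. No label or header used here names the reference, so whether it is the Dam-only sample is not known, and its reads are those that the ratios imply. The ends gave 5709 of the 239468 autosomal bins, with 295 to 301 bins per chromosome and a median of 24 fragments per bin, as in the rest. GATC fragments at the ends averaged 398 bp in length, and those in the rest 398 bp. The median number of reads per fragment, recovered from the ratios, was 14 in the Dam-Lamin A library, 10 with Dam-Lap2b and 9 in the reference at the ends, against 10, 10 and 8 in the rest. The profiles and LAD lists are called Lamin A and Lap2b here by their labels alone. Bins in 1 list alone were higher in the profile of the other label, so every LAD share given by label carries the doubt that lists or profiles were exchanged, which was not tested.

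Chromosome ends were no uniform compartment. In the Lamin A profile they averaged 0.39 ± 1.43 (SD over bins), against 0.18 ± 1.33 in the rest, a difference of 0.21. In the Lap2b profile they averaged 0.14 ± 1.36, against 0.26 ± 1.26, a difference of −0.13. The standard errors of these differences over the 19 chromosomes were 0.18 and 0.20. In the Lap2b profile the difference became 0.055 with a window of 1 Mb and −0.187 with 5 Mb. With 3 Mb it ran from −0.213 without chromosome 17 to −0.060 without chromosome 7. The level of the ends in that profile was 0.314 with 1 Mb, and ran from 0.054 without chromosome 17 to 0.225 without chromosome 11. The SD over the 19 ends was 0.83 in the Lamin A profile and 0.93 in the Lap2b profile. The remainders of the same chromosomes varied far less, with an SD of 0.14 and 0.17. Averaging over a whole chromosome by itself narrows that spread. The other 788 consecutive autosomal windows of 3 Mb had SDs of 0.79 and 0.86, close to those of the ends. Single ends ranged from −0.90 to 1.75 in the Lamin A profile and from −1.47 to 1.60 in the Lap2b profile. An end lay above the remainder of its own chromosome on 9 of 19 chromosomes in the former and on 8 in the latter, with 8 above and 10 below in both.

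**Figure D1:**
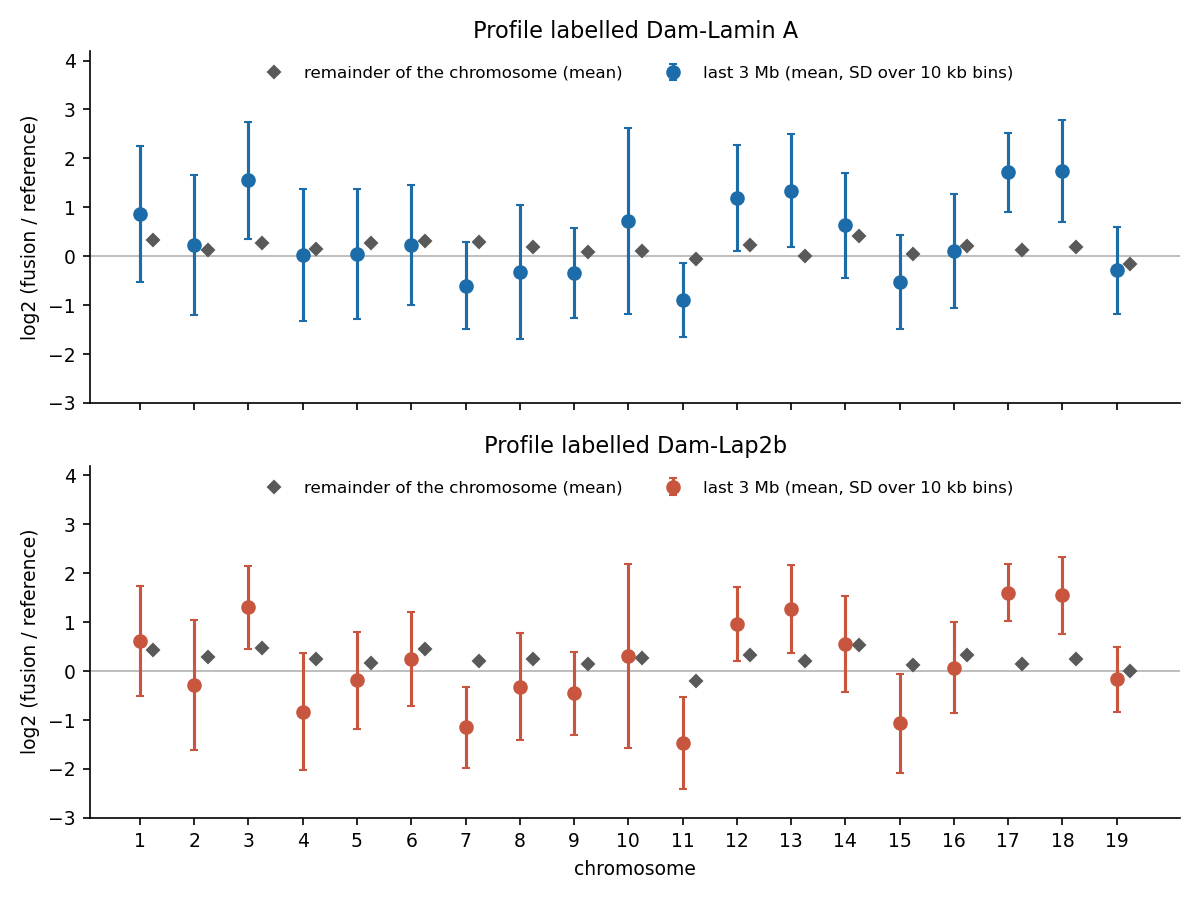
Mean log2 ratio of fusion to reference in the last 3 Mb of each autosome (circles, bars are the SD over 10 kb bins) and in the remainder of the chromosome (diamonds), for the profiles labelled Dam-Lamin A (top) and Dam-Lap2b (bottom). The remainders run from −0.20 to 0.54, while the ends run from −1.47 on chromosome 11 to 1.75 on chromosome 18.

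The share of bins on the lamina side of 0 was close to the background. At the ends 56.6% of bins were above 0 in the Lamin A profile, against 54.2% of all autosomal bins. In the Lap2b profile it was 52.7%, against 57.7%. Bins above 1 made up 37.4% of the ends and 34.1% of all bins in the former profile, and 33.0% and 36.8% in the latter. Below −1 lay 20.9% of the ends against 23.6% of all bins in the former, and 24.5% against 20.2% in the latter. Against all bins, the ends were shifted upward in the Lamin A profile and downward in the Lap2b profile at each of these limits. The bins of a chromosome are neighbours and not independent counts, so no binomial interval is given.

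The highest ends were those of chromosomes 17, 18 and 3. Chromosome 17 (chr17:92272649-95272648) averaged 1.71 ± 0.81 (SD over bins) in the Lamin A profile and 1.60 ± 0.59 in the Lap2b profile, where the remainder of the chromosome gave 0.12 and 0.15. It was the end on which every 100 kb step was above 0 in both profiles, 30 of 30. Chromosome 18 (chr18:87770908-90770907) averaged 1.75 ± 1.04 and 1.55 ± 0.79, and ranked first of the 29 consecutive windows of 3 Mb on that chromosome in both profiles. Chromosome 3 (chr3:156599437-159599436) averaged 1.55 ± 1.19 and 1.30 ± 0.85, with 28 of 30 steps above 0 in both. It ranked 4 and 10 from the top of 52 windows, and chromosome 17 ranked 2 and 3 of 31. Chromosome 13 followed with 1.34 ± 1.16 and 1.27 ± 0.90, and chromosome 12 with 1.19 ± 1.09 and 0.97 ± 0.76. These 5 ends were lamina-side nearly throughout, and all 5 exceeded the remainder of their chromosome in both profiles.

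For orientation, the outermost 2 protein-coding genes with a gene name, leaving out numbered gene models, are given for the ends singled out here, in the RefSeq order of build GRCm38. On chromosome 17 they are Adcyap1, which encodes the neuropeptide PACAP, and Mettl4, an adenine methyltransferase. On chromosome 18 they are Dok6, an adaptor of receptor tyrosine kinases, and Tmx3, a disulfide isomerase of the endoplasmic reticulum. On chromosome 3 they are Rpe65, the retinoid isomerase of the retinal pigment epithelium, and Wls, a carrier of Wnt proteins. This order is that of another build than the profiles', so no gene was placed in a bin and none has a value here.

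The lowest ends were those of chromosomes 11, 7 and 15. Chromosome 11 (chr11:118843412-121843411) averaged −0.90 ± 0.76 in the Lamin A profile and −1.47 ± 0.95 in the Lap2b profile, against −0.06 and −0.20 in its remainder, and only 2 of its 30 steps were above 0 in either profile. Chromosome 7 (chr7:149524388-152524387) averaged −0.60 ± 0.90 and −1.15 ± 0.83, and ranked 43 and 45 from the top of 48 windows. Chromosome 15 (chr15:100494972-103494971) averaged −0.53 ± 0.96 and −1.07 ± 1.01, and ranked 24 and 29 of 34. Chromosome 11 ranked 33 of 40 in both profiles. All 3 lowest ends lay below the remainder of their chromosome in both profiles. By the same rule the outermost genes are Metrnl, which encodes a secreted protein, and Ptchd3 on chromosome 11. They are Mrgprf and Mrgprd, both G protein-coupled receptors, on chromosome 7, and Glycam1, a mucin-like glycoprotein, and Mucl2 on chromosome 15.

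Chromosomes 9, 8 and 19 were also below 0 in both profiles. Chromosome 9 averaged −0.34 ± 0.93 and −0.46 ± 0.85, chromosome 8 −0.32 ± 1.37 and −0.32 ± 1.09, and chromosome 19 −0.29 ± 0.88 and −0.17 ± 0.66. On chromosome 8 this mean joined unlike parts, since the last 0.25 Mb averaged 2.44 and 1.79 and the remainder of the window −0.57 and −0.51. Chromosomes 16 and 6 were near 0, with 0.11 ± 1.16 and 0.07 ± 0.92 for the former and 0.23 ± 1.22 and 0.24 ± 0.96 for the latter. Chromosome 14 averaged 0.63 ± 1.07 and 0.55 ± 0.97, and chromosome 1 averaged 0.86 ± 1.40 and 0.62 ± 1.12. Both were above the remainder of their chromosome, which gave 0.41 and 0.54 on chromosome 14 and 0.32 and 0.44 on chromosome 1.

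On chromosome 10 the end was split into opposite states. Its mean of 0.72 ± 1.90 in the Lamin A profile and 0.31 ± 1.88 in the Lap2b profile had the widest SD of the 19 ends. The outer part formed a LAD of 1532 kb in the Lamin A list (chr10:128445454-129977041), in which the profiles averaged 2.47 and 2.04. Inward of it, single steps of 100 kb were as low as −1.85 and −2.42. Its outermost genes by the rule above are Vmn2r86 and Vmn2r87, which encode vomeronasal receptors.

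**Figure D2:**
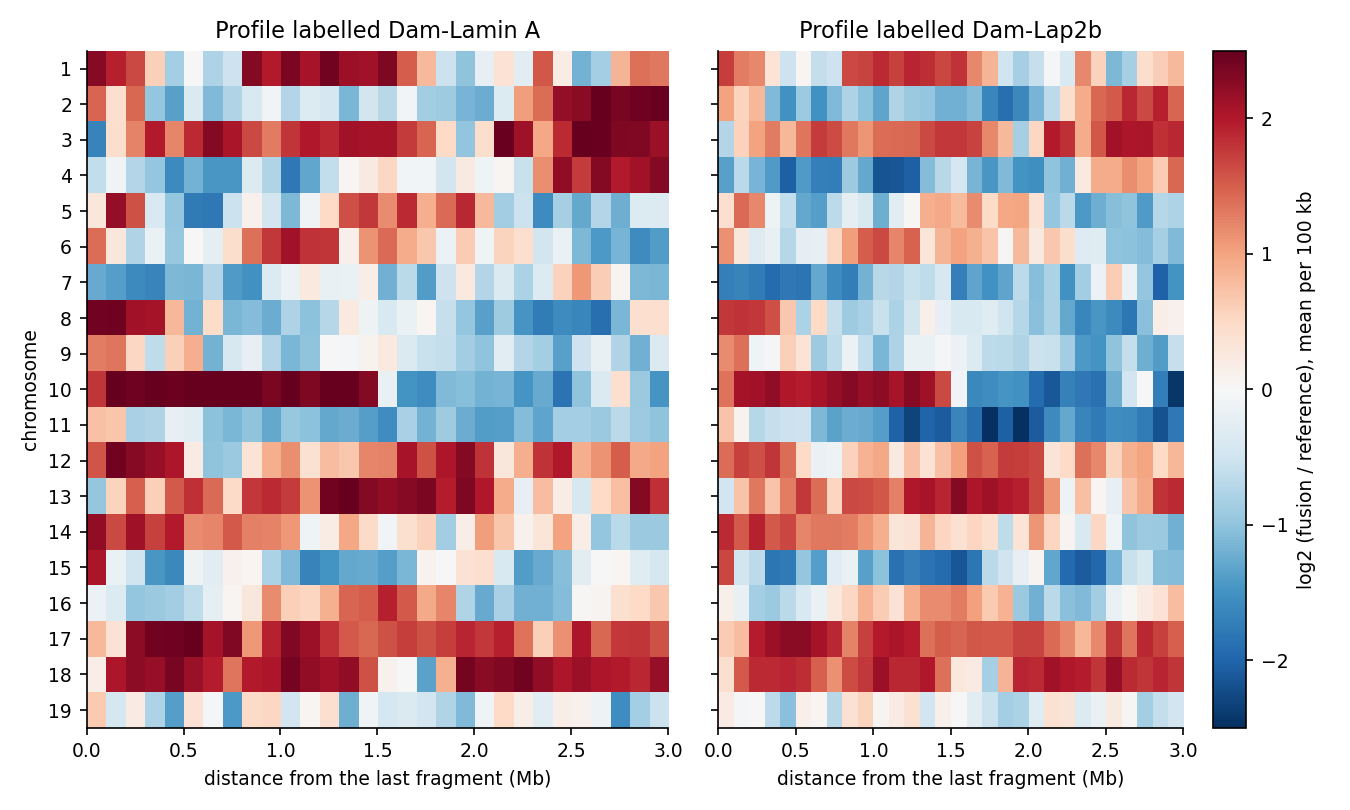
Mean log2 ratio in steps of 100 kb (colour, red above 0 and blue below) by distance from the last fragment (x axis, Mb, telomere at the left) for the 19 autosomes (rows), for the Lamin A and Lap2b profiles. Chromosomes 3, 12, 13, 17 and 18 are red nearly throughout, chromosomes 7, 11 and 15 are mostly blue, and chromosome 10 changes from red to blue at about 1.5 Mb.

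The 2 profiles had opposite signs on 3 ends, those of chromosomes 2, 4 and 5. Chromosome 4 averaged 0.02 ± 1.34 in the Lamin A profile and −0.83 ± 1.19 in the Lap2b profile. Chromosome 2 averaged 0.23 ± 1.44 and −0.28 ± 1.34, and chromosome 5 averaged 0.04 ± 1.33 and −0.19 ± 1.00. On both chromosomes 2 and 4 the inner border of the window lay in a LAD of the Lamin A list, with 2.46 and 1.75 in its part on chromosome 2 (chr2:178747378-179167030) and 2.03 and 0.96 on chromosome 4 (chr4:152630053-153313339). Steps of 100 kb above 0 numbered 11 of 30 in both profiles on chromosome 2, and 12 and 7 on chromosome 4. The outermost 0.25 Mb was high on chromosome 2, at 1.07 and 0.79, and low on chromosome 4, at −0.44 and −1.05.

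Reads recovered from the ratios varied among the ends for both fusions and for the reference. The reference held from 26.0 reads per kb on chromosome 18 and 29.4 on chromosome 17 to 139 on chromosome 11 and 150 on chromosome 15. Dam-Lamin A ranged from 47.9 on chromosome 7 to 117 on chromosome 3, and Dam-Lap2b from 28.2 on chromosome 7 to 108 on chromosome 3. Chromosomes 17 and 18 thus had the fewest reference reads, and chromosome 7 the fewest reads of both fusions. The values of both profiles could be written with the same reference reads. Across the 19 ends Pearson's r between the profiles was 0.965 and Spearman's rho 0.970, as a description, since the points share that reference. Within the ends r over bins was 0.897, against 0.882 in the rest.

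Ends were described against other properties of their chromosome, again over 19 points of the same libraries. Against the mean of the remainder of the chromosome, r was 0.27 in the Lamin A profile and 0.49 in the Lap2b profile. Against the length of the chromosome r was −0.02 and −0.13. The mean length of the GATC fragments, which ranged from 374 to 415 bp among the ends, gave r of −0.50 and −0.45. Spearman's rho was weaker there, at −0.34 and −0.35. Chromosomes 18 and 8 had like remainders in the Lamin A profile, 0.19 and 0.20, and ends of 1.75 and −0.32.

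By distance from the telomere, the outermost step was the highest. Over the last 0.25 Mb the mean over 19 chromosomes was 0.84 ± 1.05 (SD over chromosomes) in the Lamin A profile and 0.63 ± 0.94 in the Lap2b profile. Over the other steps of 0.25 Mb the means went up to 0.71 in both ranges of the former profile, from the telomere to 3 Mb and from 3 to 10 Mb. In the latter profile the highest mean between 3 and 10 Mb was 0.43. The last 0.25 Mb was above 0 on 15 and 16 of 19 chromosomes. Each other step out to 10 Mb was above 0 on 7 to 12 of 19 in both profiles. The last 0.25 Mb was above the remainder of its own window on 12 of 19 chromosomes in both profiles. The mean gain over the remainder of the window was 0.49 ± 1.30 and 0.55 ± 1.11 (SD over 19 chromosomes).

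In the Lamin A profile the largest values of the last 0.25 Mb belonged to chromosomes 8, 10 and 12, and with the Lap2b profile beside them they were 2.44 and 1.79 on chromosome 8, 2.18 and 1.78 on chromosome 10, and 2.04 and 1.55 on chromosome 12. Chromosomes 1 and 14 also stood high, with 2.02 and 1.43 on the former and 1.98 and 1.76 on the latter. The lowest were −1.38 and −1.74 on chromosome 7 and −0.44 and −1.05 on chromosome 4. On the other 7 chromosomes (3, 4, 7, 13, 16, 17 and 18) the outermost step was lower than the window behind it in both profiles. Chromosome 3 gave −0.33 and 0.10 there, against 1.72 and 1.41 in the remainder of its window. Reads per kb in the last 0.25 Mb were 87.7 with Dam-Lamin A, 78.3 with Dam-Lap2b and 56.8 in the reference, against 55.4, 59.8 and 62.0 in the rest of the autosomes.

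**Figure D3:**
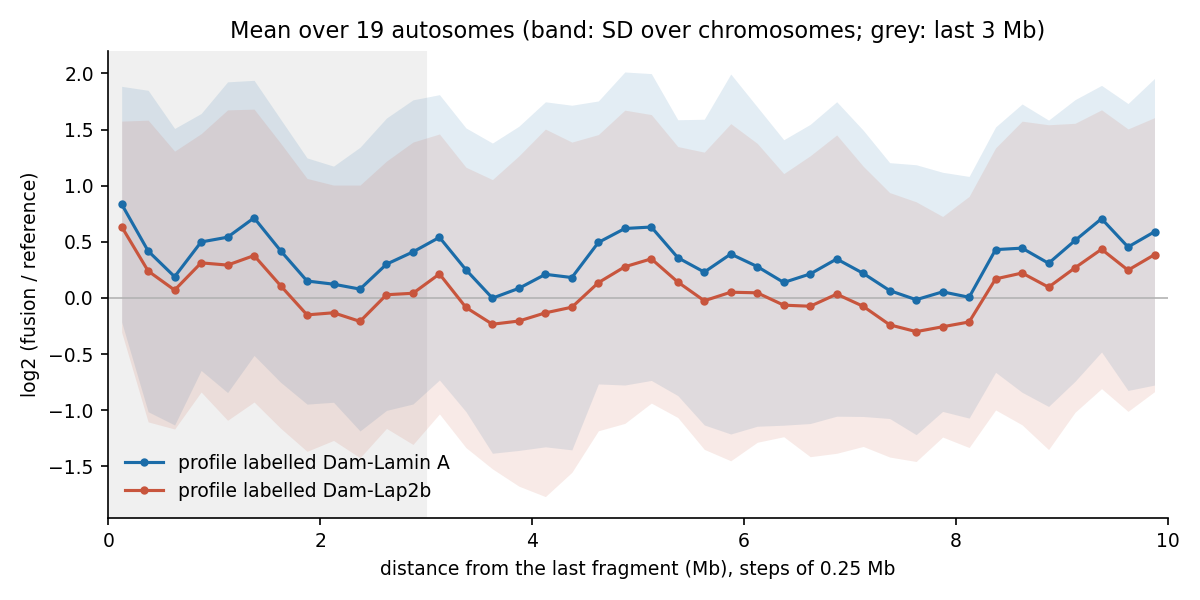
Mean log2 ratio over 19 autosomes (lines) and SD over chromosomes (bands) in steps of 0.25 Mb by distance from the last fragment (Mb), for both profiles, with the last 3 Mb in grey. The first step is the highest of each line, at 0.84 and 0.63, and the bands of all steps include 0.

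The centromeric end of the same chromosomes served as a second comparison. The first 3 Mb, next to the centromere, averaged −0.08 ± 1.21 (SD over bins) in the Lamin A profile and 0.08 ± 1.17 in the Lap2b profile. The distal ends were higher by 0.47 and 0.05. The latter value was −0.16 when the windows at both ends of the chromosome were widened to 5 Mb. With windows of 3 Mb it was below 0 on leaving out chromosome 12, 17, 18 or 19, down to −0.042 without chromosome 18. The distal ends exceeded the first 3 Mb on 12 and 11 of 19 chromosomes. Levels at both ends of a chromosome were loosely related, with r of 0.25 and 0.31 over 19 chromosomes.

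The balance between the fusions was shifted toward Dam-Lamin A at the ends. Dam-Lap2b minus Dam-Lamin A averaged −0.26 ± 0.64 (SD over bins) at the ends and 0.08 ± 0.63 in the rest. The difference was below 0 at 16 of 19 ends (84.2%) and at 256 of the other 788 consecutive windows of 3 Mb (32.5%). It was below 0 at 3 of 19 remainders, each a mean over a far longer stretch. Among the windows of its chromosome, counted from the lowest, the end ranked 1 of 51 on chromosome 4 but 10 of 20 on chromosome 19. On 19 of 19 chromosomes the difference was lower at the end than in the remainder. That count was 16 with a window of 1 Mb, 18 with 5 Mb and 17 with bins weighted by fragment length. Bins in which the Lamin A profile was the higher made up 67.1% of the ends, against 45.5% of all autosomal bins. Bins with a difference below −0.5 made up 33.2%, against 16.3%, and those above 0.5 made up 10.5%, against 23.7%. The ends and the first 3 Mb lay on opposite sides, the latter with a mean of 0.16.

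Chromosome 4 had the lowest difference, −0.85 ± 0.72, where its remainder gave 0.09, and the Lamin A profile was the higher in 90.7% of its end bins. Chromosomes 11, 7, 15 and 2 followed, with −0.57, −0.55, −0.54 and −0.51. These are ends that were low in the Lap2b profile, which is itself a term of the difference. Chromosomes 9 and 8 were lower than chromosome 2 in that profile, at −0.46 and −0.32 against −0.28. Their differences were −0.11 and 0.01. High ends also had negative differences, −0.25 on chromosome 3, −0.20 on chromosome 18 and −0.11 on chromosome 17. Chromosomes 6, 8 and 19 were the 3 ends above 0, with 0.01, 0.01 and 0.13, and each was still below its remainder, at 0.14, 0.05 and 0.15.

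The lower difference was present inside and outside LADs. In bins of both lists it averaged −0.33 ± 0.51 at the ends and 0.03 ± 0.53 in the rest. In bins of neither list it was −0.19 ± 0.70 and 0.10 ± 0.71. The Lamin A profile itself was higher at the ends in both classes, with 1.68 against 1.32 in both lists and −0.63 against −1.01 in neither. For the Lap2b profile the values were 1.35 and 1.35 in both lists and −0.82 and −0.90 in neither. On a log2 scale, the reads per kb at the ends over those in the rest were 0.46 with Dam-Lamin A, 0.15 with Dam-Lap2b and 0.26 in the reference.

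The difference varied with fragment length. In the rest it was −0.22 for fragments up to 100 bp, −0.27 from there to 250 bp, −0.05 to 500 bp, 0.42 to 1000 bp and 0.80 above. At the ends it was −0.47, −0.54, −0.37, 0.04 and 0.29 in the same classes. Ends were lower than the rest in every length class, with ends minus rest at −0.24 up to 100 bp, −0.28 from there to 250 bp, −0.33 to 500 bp, −0.38 to 1000 bp and −0.51 above. The end was the lower on 18, 19, 19, 19 and 14 of 19 chromosomes in these classes. When bins were weighted by fragment length the difference at the ends was −0.04, and ends minus rest was −0.40, against −0.34 without weights. The size of the difference at the ends alone thus depended on this weighting, and the gap to the rest was larger with it.

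The gap was not confined to the last 3 Mb. In steps of 0.25 Mb the mean difference ran from −0.37 to −0.12 within 3 Mb of the end and from −0.36 to −0.20 between 3 and 10 Mb. Each chromosome was also cut into 10 equal parts, an arrangement chosen after the values had been seen. The difference was 0.23 ± 0.20 (SD over 19 chromosomes) in the part next to the centromere, 0.10 ± 0.16 from 50 to 60% of the length, −0.14 ± 0.25 from 80 to 90% and −0.24 ± 0.25 in the last part. The last part was below the first on 18 of 19 chromosomes, by a mean of −0.47 ± 0.38. Along the same parts, the reads per bin of Dam-Lamin A went from 484 in the first to 718 in the last and those of the reference from 572 to 730. Those of Dam-Lap2b went from 596 to 612. The part of depth in this gradient was not tested.

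**Figure D4:**
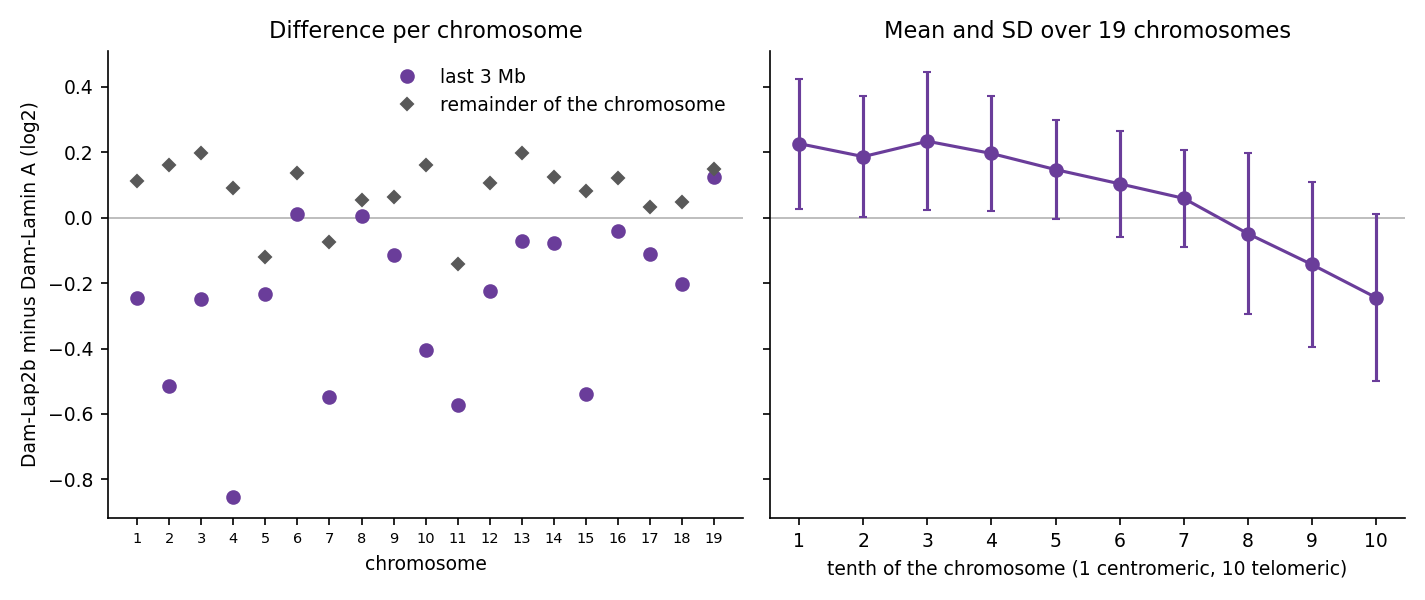
Left, Dam-Lap2b minus Dam-Lamin A (log2) in the last 3 Mb (circles) and in the remainder of each autosome (diamonds). Right, the same difference in 10 equal parts of the chromosome from the centromere to the telomere, as mean and SD over 19 chromosomes, which goes from 0.23 to −0.24.

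LAD lists covered less of the ends than of the rest, and by different amounts. The Lamin A list covered 23.6 Mb of the 57 Mb at the ends, or 41.4%, against 52.8% of the rest. The Lap2b list covered 26.4 Mb, or 46.3%, against 49.0%. By bin middles the lists held 41.5% and 46.3% of end bins, where they held 53.0% and 49.4% of all autosomal bins. The share ranged over the 19 ends from 0% on chromosome 11 to 95.4% on chromosome 17 in the former list, and from 5.53% on chromosome 11 to 89.2% on chromosome 18 in the latter. An end exceeded the remainder of its chromosome on 6 and 7 of 19 chromosomes. With domains called here by 1 rule from both profiles the share was 43.6% for the Lamin A profile, higher than in the rest by 0.50 percentage points. For the Lap2b profile it was 44.1%, and ends minus rest was −4.66 percentage points. In the lists ends minus rest was −11.4 (Lamin A) and −2.77 (Lap2b) percentage points. Which list belongs to which profile is in doubt, so these values do not tell whether the direction rested on the list.

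Which list was the larger changed at the ends. The Lap2b list had the higher share on 13 of 19 ends but on 1 of 19 remainders. At the ends the lists shared 21.6 Mb, while the Lap2b list alone held 4.77 Mb and the Lamin A list alone 2.01 Mb. In the rest the lengths in 1 list alone were 57.4 Mb and 145.7 Mb in the same order. Of the Lap2b list, 81.9% was shared at the ends and 95.04% in the rest. Of the Lamin A list it was 91.5% and 88.3%. The end bins found only in the Lap2b list averaged 0.67 ± 0.83 in the Lamin A profile and 0.13 ± 1.04 in the profile of the same label as the list. That order was also seen in the rest, with 0.35 and 0.03. End bins found only in the Lamin A list averaged 0.32 ± 0.83 in the Lamin A profile and 0.56 ± 0.56 in the Lap2b profile, and −0.04 and 0.45 in the rest. Each list alone thus went with the higher values of the profile of the other label.

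Long LADs reached into the windows on several chromosomes. In the Lamin A list the 3 longest pieces were 2275 kb on chromosome 17 (chr17:92867466-95142555), 1532 kb on chromosome 10 and 1209 kb on chromosome 18 (chr18:87770908-88980151, the window's part of a longer LAD). In the Lap2b list they were 1515 kb on chromosome 18 (chr18:89162198-90677374), 1505 kb on chromosome 10 and 1160 kb on chromosome 18 (chr18:87770908-88931371). The profiles averaged 1.82 and 1.68 in the piece on chromosome 17, and 1.90 and 1.62 in the longest on chromosome 18. Among stretches in 1 list alone the longest was chr18:90004764-90677374 (673 kb, Lap2b list), where the profiles averaged 2.03 and 1.66. The next was chr14:124071488-124655711 (584 kb, the same list), with 1.24 and 1.17. Further stretches in the Lap2b list alone had a Lap2b profile below 0, as on chromosome 4 (chr4:153941373-154315978, 375 kb) with 0.25 and −0.80. Others were on chromosome 7 (chr7:151265029-151588033, 323 kb) with 0.05 and −0.66, and on chromosome 15 (chr15:100630538-100947423, 317 kb) with 0.05 and −0.62. The longest in the Lamin A list alone was chr14:123506500-123795449 (289 kb), with 0.23 and 0.44.

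Few listed LADs reached the telomeric border. A LAD ended within 50 kb of the last fragment on 3 chromosomes in the Lamin A list (1, 10 and 15) and on 2 in the Lap2b list (1 and 10). On chromosome 1 both lists ended 0.235 kb from the last fragment, and on chromosome 15 the former list ended 0.071 kb from it. The median distance from the last LAD to the last fragment was 549 kb over 18 chromosomes in the former list and 378 kb over 19 in the latter.

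High bins in neither list made up a larger share near the chromosome borders than between them, and at the distal ends chromosomes 8, 12 and 14 held most of them. Over all autosomes 30.1% of bins were above 1 in both profiles, and 0.309% were above 1 in both and in neither list. In the last 0.5 Mb 405 of 955 bins were above 1 in both, and 183 of these (45.2%) lay in neither list. Chromosomes 8, 12 and 14 held 140 of the 183, which were all of their high bins there. On the other 16 chromosomes 43 of 265 high bins (16.2%) lay in neither list, and these bins came from 11 chromosomes. From 0.5 to 3 Mb it was 21 of 1385 (1.52%), and outside the last and the first 3 Mb 438 of 69163 (0.633%). In the first 3 Mb it was 99 of 1217 (8.13%). In the outermost step fewer bins were listed than were above 0. In the last 0.25 Mb 69.8% and 72.3% of bins were above 0 in the Lamin A and Lap2b profiles, and 21.3% and 26.4% were in the lists of these labels.

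Runs of at least 100 kb that were above 0 in both profiles and in neither list numbered 7 at the ends, with 2.19 Mb in all, 6 in the first 3 Mb, with 1.52 Mb, and 2 in the remaining autosomes, with 0.22 Mb. The longest was chr12:120700001-121254762 (555 kb), which reached the last fragment and averaged 1.98 in the Lamin A profile and 1.52 in the Lap2b profile. Next came chr14:124660001-125194853 (535 kb), with 1.88 and 1.67, and chr8:131270001-131738780 (469 kb), with 2.16 and 1.69. All 3 extended to the last fragment of their chromosome. Their bins averaged 1050 to 1281 Dam-Lamin A reads, 837 to 1056 Dam-Lap2b reads and 271 to 302 reference reads. The reference was thus low there, since its mean over the 10 equal parts of the chromosomes was 572 to 730 reads per bin. A low reference was not particular to bins in neither list. The Lamin A list covered 95.4%, 71.0% and 87.7% of the highest ends, those of chromosomes 17, 18 and 3. These ends held 29.4, 26.0 and 45.7 reference reads per kb, against 62.0 in the rest of the autosomes. The part of the reference in the high values of the runs was not tested. Shorter runs lay at the ends of chromosomes 9, 6 and 2, and 1 on chromosome 13 lay 2792 kb from the end.

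**Figure D5:**
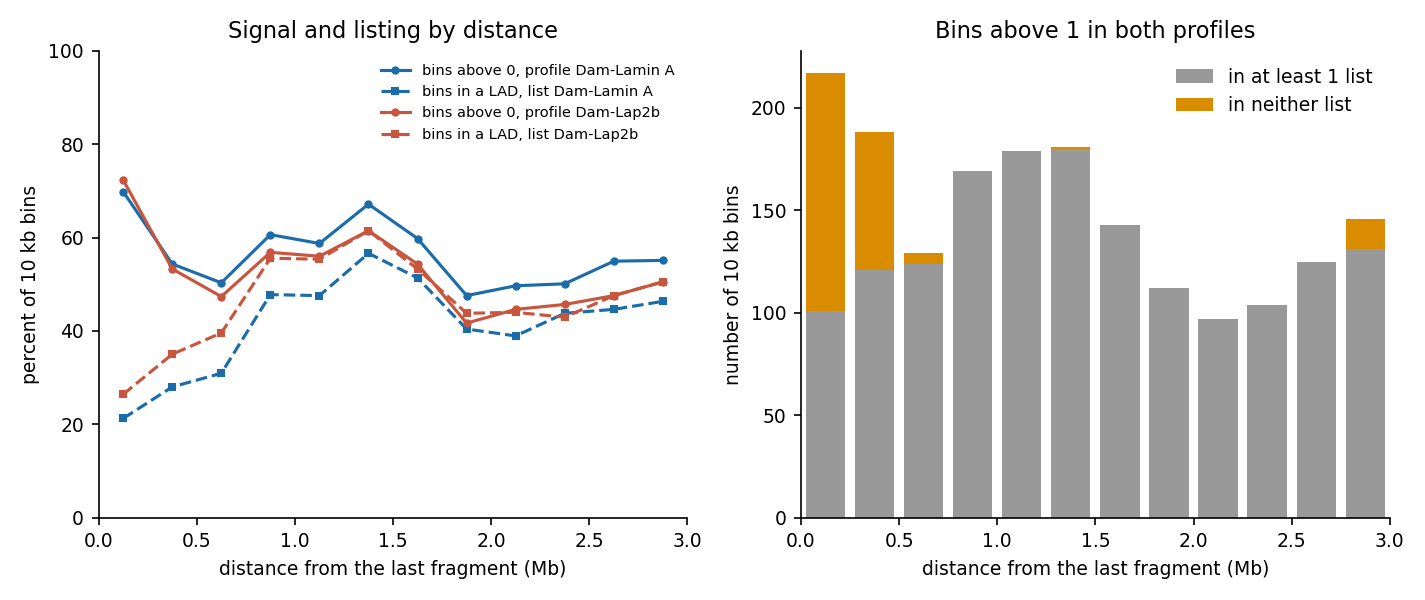
Left, percent of 10 kb bins above 0 in each profile (solid lines) and inside a LAD of each list (dashed lines) by distance from the last fragment (Mb), over 19 autosomes. Right, number of bins above 1 in both profiles that lay in at least 1 list (grey) or in neither (orange), of which 183 fall in the last 0.5 Mb.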

How the data were processed

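Both profiles hold log2 values in 4 columns as deposited (chromosome, start, end, value), and the LAD lists as deposited hold positions without a score. Build mm9 and the aligner Bowtie are named in the submitters' processing notes; counting, normalization and domain caller are not given in the sources used here. Start positions are printed counted from 1. The deposited values had the form of a constant (0.0846 and 0.0222) plus log2((fusion reads + 1)/(reference reads + 1)), read from the values and stated by no label. For each fragment the lowest read numbers, with reference + 1 up to 5000, that fit the values of both profiles at once were sought, and found for 99.9963% of autosomal fragments. They are lower bounds and served to describe depth and for 1 alternative.

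Fragments were placed in 10 kb bins by their middle, members and others apart, and bins with fewer than 5 fragments were left out. A bin was in a LAD when its middle was. Domains called here were runs of bins above 0 of at least 100 kb. The bin means, LAD shares and domain calls were tested on simulated levels. The recovery of reads was not part of that test. Python 3.11.15, numpy 2.4.6 and pandas 2.3.3 were used. The members, windows and thresholds were chosen with earlier results of these data known, and the bins in neither list, fragment length classes and 10 equal parts after seeing the values here. Regions were named by a rule: the 3 highest and lowest ends, ends of opposite sign, the longest LAD pieces and LADs within 50 kb of the last fragment. The runs in neither list, the chromosomes named for other features, the further stretches in 1 list and the rule for gene names were chosen after values were seen. No genome of build mm9 was used, so no sequence is printed and no gene has a value.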

Additional observations from a re-analysis of the deposited data

Results flagged for a closer look

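Ends minus rest of the autosomes had opposite signs in the 2 profiles, 0.208 in the Lamin A profile and −0.127 in the Lap2b profile. The difference between these values was not tested, because each fusion had 1 sample. The standard errors over the 19 chromosomes were 0.183 and 0.196. Lap2b minus Lamin A, ends minus rest, was −0.336 with a standard error of 0.056 over the same chromosomes, which describes the spread within these libraries alone.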

How the results depend on the processing

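Ends minus rest in the Lap2b profile was below 0 with windows of 3 Mb and of 5 Mb, at −0.127 and −0.187. With 1 Mb it was 0.055. Ends minus first 3 Mb in that profile became −0.16 when the windows at both ends of the chromosome were 5 Mb. With 3 Mb it ranged from −0.042 without chromosome 18 to 0.142 without chromosome 4. With domains called here by 1 rule the LAD share minus rest was 0.50 percentage points for the Lamin A profile and −4.66 for the Lap2b profile. In the lists it was −11.4 (Lamin A) and −2.77 (Lap2b), with the pairing of lists and profiles by label in doubt.

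The share of Lamin A bins above 0 was 54.3% with weighting by fragment length, 55.2% without fragments at the most frequent value, 58.8% with 1 Mb and 54.0% with 5 Mb. Leaving out 1 chromosome gave 54.4% to 59.0%. For Lap2b it was 54.4% with that weighting, 57.5% with 1 Mb and 49.6% with 5 Mb, and 50.2% to 55.3% with 1 chromosome left out. The share over all autosomal bins was not computed in these settings, so these shares lack a matching background. With that weighting the level of ends minus rest was 0.227 (Lamin A) and −0.171 (Lap2b), against 0.208 and −0.127 without. Lap2b minus Lamin A was −0.036 with weighting and −0.17 with 1 Mb, and its ends minus rest −0.40 and −0.25. With 1 Mb the LAD share was 31.9% (Lamin A list) and 38.9% (Lap2b list), or −20.7 and −10.1 percentage points against the rest. The causes were not tested. No paired analysis was possible because each group had 1 sample. Depth could not be compared over replicates.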
